A study of Mus musculus with 8 samples.

Results

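The genes described here are the mouse chemokines, their receptors, the interleukin-1 (IL-1) family with its receptors, and the epithelial cytokines Il6 and Tslp. They were chosen by symbol alone: every row whose symbol began with Ccl, Cxcl, Ccr or Cxcr and a digit, together with Il1a, Il1b, Il1rn, Il1r1, Il1r2, Il1rl1, Il1rap, Il18, Il33, Il6 and Tslp. The rule found 64 of the 23432 listed genes and used no measured value. They were 24 CC chemokines, 12 CXC chemokines, 10 CC receptors, 7 CXC receptors, 9 genes of the IL-1 family and its receptors, and the other two cytokines.

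Polyadenylated RNA of mouse dorsal skin epithelium was sequenced from 4 groups of 2 libraries each. The E16.5 groups were control embryos and MOF cKO embryos (MOFfl/fl/K14Cre), and both held epithelial cells carrying Krt14-H2BGFP that were released with collagenase and trypsin and sorted as live GFP-positive cells. The P0.5 groups were newborn control and Kansl1 cKO animals (Kansl1fl/fl/K14Cre), and both held Dispase-separated epidermal sheets lysed directly in TRIzol with no sort. MOF, encoded by Kat8, is the acetyltransferase of histone H4 lysine 16, KANSL1 is a subunit of the NSL complex that contains MOF, and the 2 comparisons asked which genes depend on each. Controls were littermates that were wild-type or heterozygous, and the labels give them only as control. The Krt14 promoter drives Cre in basal epithelial cells of the skin and their descendants, so the deletion was not directed at dermal cells, blood vessels or leukocytes. The deleted stretch of Kansl1 is an early exon, which counts over the whole gene do not resolve.

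Chemokines are small secreted proteins that bind receptors on leukocytes and draw these cells along a gradient, and the CC and CXC classes are named after the spacing of their leading cysteines. IL-1 alpha and IL-1 beta signal through the receptor IL1R1 with the accessory chain IL1RAP, while the antagonist encoded by Il1rn and the decoy receptor encoded by Il1r2 hold this signal back. Epidermal keratinocytes are a known source of several of these signals, among them the IL-1 alpha and IL-18 kept in the healthy epidermis, CXCL14, CCL20, CCL27 and the alarmin TSLP.

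Between 9108709 and 27561688 reads per library fell on genes, so that 1 count was worth 0.030 to 0.122 CPM (counts scaled to library size with TMM factors over all 8 libraries, the scale of every CPM below). Whole-gene counts of Kat8 were 443 and 408 in the E16.5 controls and 248 and 329 in MOF cKO (log2 difference -0.14, adjusted p = 0.554), and those of Kansl1 were 355 and 745 in the P0.5 controls and 649 and 387 in Kansl1 cKO (log2 difference -0.52, adjusted p = 0.242), so neither gene's total count checked the label. The keratinocyte genes Krt14 and Krt5 were abundant in all 8 libraries, with at least 45975 counts each. Among the 64 members, 9 had no count in any library (Ccl8, Ccl21a, Ccl21b, Ccl21c, Ccl26, Ccl27b, Cxcl17, Cxcr1 and Cxcr5). A further 18 members never reached a group mean of 1 CPM and were called in no comparison. The highest of their group means was 0.981 CPM, for Ccr8 in Kansl1 cKO, and none had more than 38 counts in a library. Of the remaining 37, 36 are described with their values.

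Cxcl14, a chemokine made constitutively by skin epithelium, had the highest level per length of all members in each of the 4 groups. Its mean RPKM (the CPM divided by the annotated exon length in kilobases) was 407 in E16.5 controls, 213 in MOF cKO, 235 in P0.5 controls and 290 in Kansl1 cKO. It made up 81.0% and 76.0% of the summed CPM of the members in the E16.5 controls, against 47.1% and 42.9% in MOF cKO. The order below it differed between the groups. In E16.5 controls Cxcl1 (24.5 RPKM), Cxcr7 (8.81), Il1r1 (6.88) and Ccl27a (4.65) followed, and in MOF cKO Cxcl1 (51.9), Tslp (46.4), Cxcl16 (31.3) and Ccl20 (11.2). In P0.5 controls Il18 (147), Il1rn (45.9), Il1r2 (23.9) and Il1a (20) followed, and in Kansl1 cKO Il18 (171), Il1rn (41.8), Il1a (23.7) and Cxcr7 (20.3). These ranks are a description over 2 libraries a group. Neighbours such as Cxcr4 (4.36 RPKM) and Cxcl16 (4.34 RPKM) in E16.5 controls did not differ beyond the spread of their libraries. The number of members with a group mean of at least 1 CPM was 16 in E16.5 controls and 25 in each of the other groups.

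**Figure D1:**
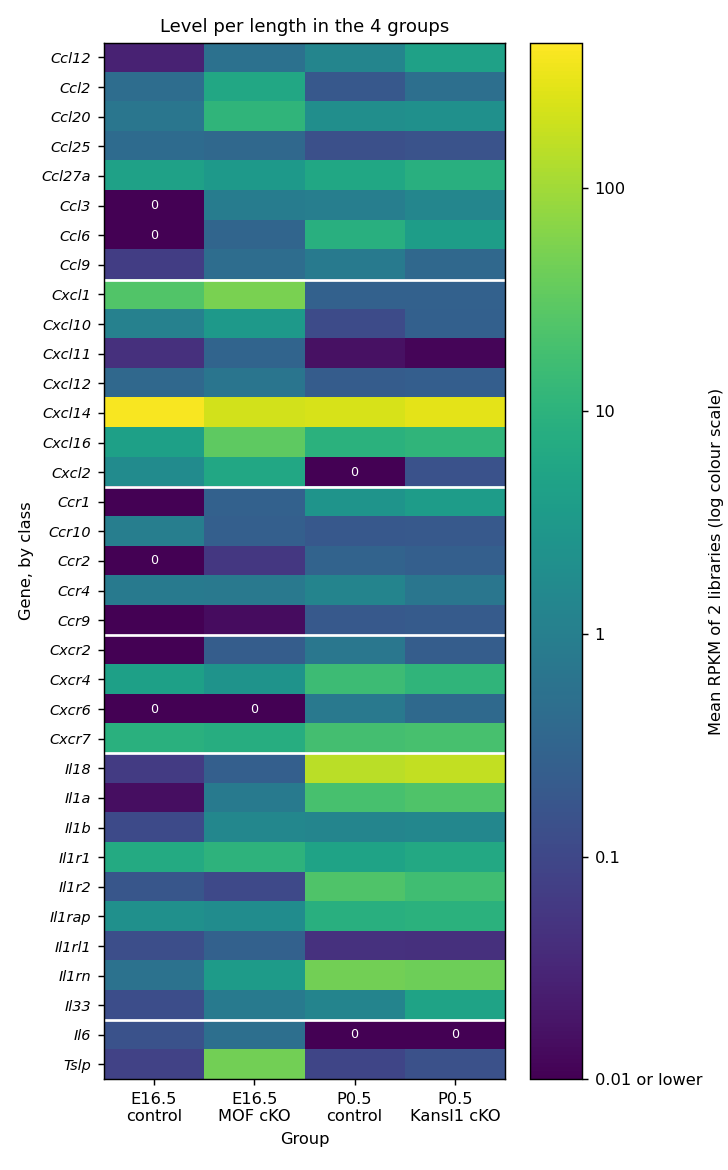
Mean RPKM of 35 members in the 4 groups (columns), on a log colour scale, with genes ordered by class and white lines between the classes; a 0 marks a group with no count in either library. Cxcl14 is the brightest row in all 4 columns, Tslp is bright in the MOF cKO column alone, and Il18, Il1a, Il1r2 and Il1rn are bright in both P0.5 columns.

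Deletion of MOF was accompanied by more RNA of ligands of both chemokine classes, of IL-1 alpha, IL-1 beta and their antagonist, and of Tslp, and by less RNA of Cxcl14. A gene is called where edgeR's quasi-likelihood test gave an adjusted p (Benjamini-Hochberg over all genes tested) at or under 0.01 with more than a 1.5-fold difference. Of the 34 members with enough reads to be tested in the 4 E16.5 libraries, 9 were called higher and 1 lower. Among all 13956 genes tested, 10% were called higher and 9.59% lower. The median log2 difference was 1.66 over these members, also with the 2 members at 0 in the controls put at their lower bound, and -0.02 over all genes tested. By log2 difference 24 of the 34 were above 0 and 10 below. The filter keeps a gene with enough reads in 1 group alone. Members near 0 in the controls, such as Ccl3, Ccl6 and Il1a, could be tested only through MOF cKO, with a difference above 0. The split and the median therefore only describe the tested members.

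Tslp, which encodes an epithelial alarmin that acts on dendritic cells and innate lymphoid cells, was almost absent from the controls. It had 3 and 4 counts in the E16.5 controls and 982 and 1996 in MOF cKO, or 0.0899 and 0.134 CPM against 45.5 and 77.9 CPM. Both MOF cKO libraries stood far above every other library, since the 4 P0.5 libraries had between 0 and 4 counts. The log2 difference was 9.07 (standard error 0.431, adjusted p = 9.1e-05), the largest among the called members. Tslp lies on chromosome 18 (32815383 to 32819797, + strand, GRCm38) and overlaps 4930455D15Rik on the other strand, and the strand setting of the counting was not given in the sources used here.

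Among the CC chemokines, Ccl20, the ligand of CCR6, had 0.899 and 1.0 CPM in the E16.5 controls and 11 and 20.7 CPM in MOF cKO (log2 difference 4.06, standard error 0.384, adjusted p = 0.000604). Ccl2, a monocyte attractant that binds CCR2, had 0.509 and 0.534 CPM in the controls and 7.83 and 6.25 CPM in MOF cKO (log2 difference 3.74, standard error 0.403, adjusted p = 0.0008). The groups did not overlap for either gene, and for Ccl20 the replicates of MOF cKO differed more from each other than those of the controls. With 2 libraries a group, unchanged genes can also separate, and the share of all genes that did so was not counted. Here and below, groups that do not overlap are a description and not support for a difference. Ccl2 overlaps Gm17268 on the other strand.

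The myeloid CC chemokines were at or near 0 in the controls and low in MOF cKO. Ccl3, a ligand of CCR1, had 0 and 0 counts in the controls and 13 and 20 in MOF cKO, at least 7.28-fold higher against a floor of 3 counts per library (adjusted p = 0.0119, not called). Ccl6 had 0 and 0 counts against 16 and 11, at least 6.16-fold higher (adjusted p = 0.0162, not called). Ccl4, whose product resembles that of Ccl3, had 1 count in all against 34, a ratio of 45.6 (95% counting interval 7.65 to 1854; adjusted p = 0.0166, not called). For all of these, no control library overlapped a MOF cKO library, and each missed the threshold of 0.01. Ccl9 had 2 and 11 counts against 23 and 45 (log2 difference 2.72, standard error 0.947, adjusted p = 0.0562). Ccl7 and Ccl5 were too low to be tested, and most of their reads came from MOF cKO replicate 2. This library had 38 counts of Ccl7 and 19 of Ccl5, while MOF cKO replicate 1 had 3 and 0.

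The CC chemokines Ccl27a, Ccl28, Ccl25 and Ccl19 were not called in MOF cKO. Ccl27a, which attracts T cells bearing CCR10, had 10.9 and 11.2 CPM in the controls and 8.06 and 7.77 CPM in MOF cKO (log2 difference -0.48, standard error 0.205, adjusted p = 0.102). Ccl28, another CCR10 ligand, had 19 and 26 counts against 0 and 11 (log2 difference -1.67, standard error 1.21, adjusted p = 0.308). Ccl25, a ligand of CCR9, had 2.16 and 4.27 CPM against 2.41 and 3.20 CPM, and the groups overlapped. Ccl19, a ligand of CCR7, was decided by single libraries, with 63 and 31 counts in the controls and 97 and 1 in MOF cKO. Ccl27a and Ccl25 overlap Il11ra1 and Elavl1 on the other strand.

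Among the CXC chemokines, Cxcl16, which encodes a membrane-bound ligand of CXCR6 that is also a scavenger receptor, changed with little spread between replicates. It had 12.0 and 14.3 CPM in the E16.5 controls and 96.0 and 92.9 CPM in MOF cKO (log2 difference 2.85, standard error 0.137, adjusted p = 9.1e-05). The P0.5 libraries lay between these groups, at 26.1 to 34.8 CPM. The receptor gene Cxcr6 had no count in any E16.5 library. Cxcl16 overlaps Zmynd15 on the other strand.

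The neutrophil attractants Cxcl1 and Cxcl2, both ligands of CXCR2, were already present in the E16.5 controls. Cxcl2 had 2.13 and 5.01 CPM in the controls and 13.2 and 12.3 CPM in MOF cKO (log2 difference 1.84, standard error 0.389, adjusted p = 0.00942). Cxcl1 had 25.1 and 66.9 CPM in the controls and 89.0 and 105 CPM in MOF cKO (log2 difference 1.08, standard error 0.383, adjusted p = 0.0593, not called). Neither pair of groups overlapped, and control replicate 2 held more than control replicate 1 of both genes. Without control replicate 1 the log2 difference of Cxcl2 was 1.35, and without control replicate 2 it was 2.58. That of Cxcl1 was 0.54 without control replicate 1 and 1.95 without control replicate 2, where it was called (adjusted p = 4.46e-08), and it was also called with the replicate block (1.23, adjusted p = 1.2e-09). Their receptor gene Cxcr2 had 2 and 0 counts in the controls and 18 and 16 in MOF cKO (adjusted p = 0.0254, not called).

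Of the CXCR3 ligands, which interferon is known to induce, Cxcl10 had 2.46 and 2.57 CPM in the E16.5 controls and 8.25 and 6.21 CPM in MOF cKO (log2 difference 1.52, standard error 0.321, adjusted p = 0.00941). Cxcl11 had 9 and 2 counts against 35 and 20 (log2 difference 2.78, standard error 0.937, adjusted p = 0.0513, not called), and is annotated as a polymorphic pseudogene. Cxcl9 had 11 and 1 counts against 13 and 13 (adjusted p = 0.282). So 1 of the 3 was called. Cxcl10 and Cxcl11 overlap Art3 on the other strand.

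Cxcl14 was the only member called lower in MOF cKO. It had 785 and 701 CPM in the E16.5 controls and 404 and 373 CPM in MOF cKO (log2 difference -0.94, standard error 0.11, adjusted p = 0.00106), a 1.91-fold lower level with no overlap. Cxcl12, the ligand of CXCR4 and made mostly by stromal cells, had 2.46 and 3.67 CPM against 5.10 and 5.51 CPM (log2 difference 0.79, standard error 0.352, adjusted p = 0.115, not called).

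In the IL-1 family and its receptors 3 of the 8 members tested were called higher, where 10% of all genes tested were. These were the genes of IL-1 alpha, IL-1 beta and their antagonist. Il1a, near 0 in the controls, could be tested only through MOF cKO. Il1rn had 3.87 and 2.47 CPM in the E16.5 controls and 23.9 and 16.0 CPM in MOF cKO (log2 difference 2.64, standard error 0.307, adjusted p = 0.001). Il1b had 5 and 8 counts in the controls and 67 and 60 in MOF cKO (log2 difference 3.69, standard error 0.67, adjusted p = 0.00526). Il1a had 2 and 0 counts in the controls and 36 and 40 in MOF cKO, a ratio of 51.0 (95% counting interval 13.6 to 429; log2 difference 5.50, adjusted p = 0.00719). No control library overlapped a MOF cKO library in any of these. On chromosome 2 (GRCm38), Il1a (129299610 to 129309972) and Il1b (129364570 to 129371139) are neighbours on the - strand, and Il1rn (24336853 to 24351494) lies far from them on the + strand. Il1b overlaps the antisense gene Il1bos.

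Il1r1, Il1r2, Il1rap, Il1rl1 and Il33 were tested and not called by edgeR, while DESeq2 called Il1r1 (adjusted p = 0.00332) and Il33 (adjusted p = 0.00612) higher. Il1r1, the signalling receptor, had 48.0 and 39.5 CPM in the controls and 72.4 and 59.5 CPM in MOF cKO (log2 difference 0.59, standard error 0.153, adjusted p = 0.0203, not called). Il1rap had 26.9 and 22.4 CPM against 20.9 and 20.1 CPM (adjusted p = 0.215), and the decoy receptor Il1r2 had 11 and 10 counts against 2 and 8 (adjusted p = 0.61). Neither of these receptor chains was called. Il33, an alarmin held in the nucleus, had 16 and 7 counts against 29 and 85 (log2 difference 2.69, standard error 0.753, adjusted p = 0.0269, not called). Its receptor gene Il1rl1 had 57 and 3 counts against 19 and 75, and these groups overlapped. Il18 had 1 and 3 counts against 8 and 4, too few for a test. Il6, with 7 and 15 counts against 20 and 38, gave a log2 difference of 1.76 (standard error 0.785, adjusted p = 0.115).

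None of the 6 Ccr and Cxcr receptor genes tested was called by edgeR in the 4 E16.5 libraries or by DESeq2. By edgeR 4 of them had an unadjusted p under 0.05, as did 48.9% of all genes tested. Of all genes, edgeR called 10% higher and 9.59% lower. Ccr1 had 1 count in the controls and 38 in MOF cKO, a ratio of 51.0 (95% counting interval 8.61 to 2066; adjusted p = 0.0131), and edgeR called it with all 8 libraries in 1 fit (adjusted p = 0.000738) and with the replicate block (0.00519). Ccr2 had 0 counts against 19, at least 3.98-fold higher in the mean, and was too low for a test. MOF cKO replicate 2 held 17 of these counts and replicate 1 held 2, so the bound rests mostly on 1 library. Receptors that the sorted cells held at higher levels did not differ beyond the threshold. Cxcr7, the symbol in these files for the scavenging receptor Ackr3, had 30.1 and 29.0 CPM against 22.6 and 30.3 CPM (adjusted p = 0.502), and Cxcr4 had 5.66 and 10.1 CPM against 4.63 and 4.37 CPM (log2 difference -0.80, standard error 0.34, adjusted p = 0.0997). Ccr10, the receptor for CCL27 and CCL28, had 51 and 55 counts against 15 and 5 (log2 difference -1.93, standard error 0.776, adjusted p = 0.0869), and Ccr4 had 89 and 67 counts against 38 and 75 (adjusted p = 0.928). Ccr10 overlaps Cntnap1 on the other strand.

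**Figure D2:**
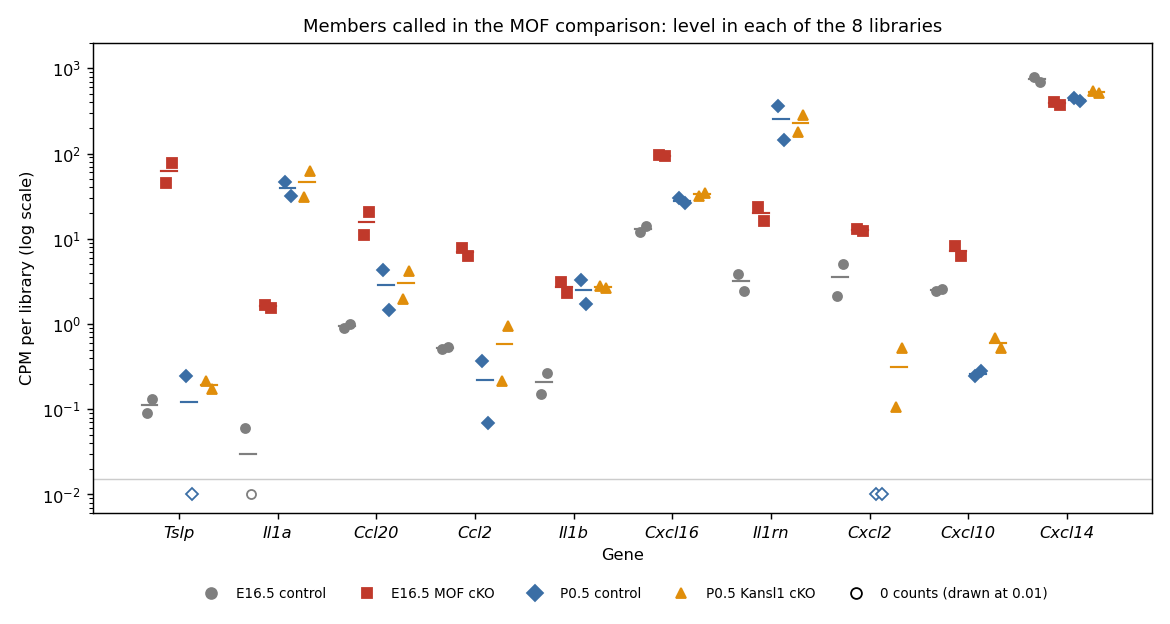
CPM (log axis) of the 10 members called in the MOF comparison in each of the 8 libraries; symbols are libraries, short bars are means of 2 libraries, and open symbols under the grey line are libraries with 0 counts, drawn at 0.01. For 9 of the genes both MOF cKO libraries lie above both E16.5 controls, and for Cxcl14 they lie below. Tslp, Cxcl16, Ccl20, Ccl2, Cxcl10 and Cxcl2 are higher in both MOF cKO libraries than in any other library.

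Of these 10 calls, 6 (Tslp, Cxcl16, Ccl20, Ccl2, Il1rn and Cxcl14) held under all 13 alternative settings, each library left out in turn included. Cxcl10, Cxcl2, Il1a and Il1b lost their call under some of them. Leaving out MOF cKO replicate 1 cost all 4 of these, with adjusted p-values of 0.0288 for Cxcl10, 0.0158 for Cxcl2, 0.0194 for Il1a and 0.02 for Il1b. Cxcl10 also lost it without control replicate 1 (adjusted p = 0.023) or 2 (0.0178), Il1a without control replicate 2 (0.0225) or MOF cKO replicate 2 (0.017), and Il1b without control replicate 1 (0.0148). The Il1a value also depended on the control replicate with 2 counts, without which its log2 difference was 8.38. Cxcl10 and Cxcl2 also lost their edgeR calls with upper-quartile factors (adjusted p = 0.0113 and 0.0118) and with library size alone (0.0192 and 0.0164). Both lost them too with all 8 libraries in 1 fit (0.0108 and 0.0237). DESeq2 called the same 10 and also Ccl3, Ccl6, Il1r1 and Il33 higher, where it called 12.0% of all genes higher and 11.7% lower.

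Marker lists of other cell types also differed between the groups, not all in the same direction. Their counts are to be read against all genes tested, of which edgeR called 10% higher and 9.59% lower. DESeq2 called 12.0% of all genes higher and 11.7% lower. By edgeR 48.9% of all genes had an unadjusted p under 0.05. The 19 macrophage markers summed to 20.9 and 45.0 CPM in the E16.5 controls and 134 and 164 CPM in MOF cKO, and 12 of the 18 tested were called higher and 0 lower. Ms4a7 was at 0 in both controls and had 33 and 48 counts in MOF cKO. By contrast, Cd68 had 555 and 1154 counts in the controls against 457 and 1225, and Cd163 had 2 and 8 against 0 and 1. The 12 neutrophil markers summed to 2.31 and 2.57 CPM in the controls and 98.7 and 131 CPM in MOF cKO, of which Mmp9, a gene that keratinocytes can also express, gave 2093 and 3301 counts. This list includes Cxcr2, which is itself a member. Of the 3 tested, all had an unadjusted p under 0.05, 1 was called higher by edgeR and 2 by DESeq2. Csf3r, the receptor for the granulocyte growth factor, had 0 and 0 counts in the controls and 9 and 37 in MOF cKO, and Fpr1 had 1 and 0 against 3 and 9. Elane, Camp, Ngp, Ltf and Itgb2l, 5 of the 12, were at 0 in both MOF cKO libraries, and the granule gene Mpo had 0 and 2 counts there. Mast cell markers summed to 23.4 and 19.1 CPM in the controls and 35.6 and 78.7 CPM in MOF cKO (of 6 tested, 1 was called higher by edgeR, 4 by DESeq2, and 5 had an unadjusted p under 0.05). Endothelial markers summed to 15.9 and 19.2 CPM against 20.7 and 35.5 CPM (of 9 tested, 1 was called higher by edgeR and 2 by DESeq2). Fibroblast markers summed to 1129 and 1797 CPM in the controls and 1773 and 2389 CPM in MOF cKO, with none of the 10 called by edgeR (8 at an unadjusted p under 0.05, and 3 called higher by DESeq2). The 11 T-cell and innate lymphoid markers summed to 65.9 and 48.1 CPM in the controls and 41.9 and 27.8 CPM in MOF cKO, mostly from Thy1 and Lck. These were the 2 tested, and both were lower in MOF cKO with an unadjusted p under 0.05 by edgeR and not called. Of this list 6 (Cd3d, Cd3g, Cd2, Il2rb, Gzma and Trat1) were at 0 in all E16.5 libraries, and Cd3e had 0 and 1 counts in the controls and 9 and 2 in MOF cKO. The 10 Langerhans and dendritic markers summed to 10.9 and 12.5 CPM in the controls and 14.0 and 15.2 CPM in MOF cKO. Of the 4 tested, edgeR called 1 higher and 0 lower. Of 10 keratinocyte markers, 2 were called higher and 1 lower, and of 7 melanocyte markers, 0 were called by edgeR and 1 higher by DESeq2. In such bulk samples more cells of a type and more RNA per cell cannot be told apart, and the part of leukocytes and other cells in the chemokine and IL-1 values was not tested. The cells had been sorted for Krt14-H2BGFP.

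Many of the genes lie in clusters. On chromosome 11 the 6 genes Ccl2, Ccl7, Ccl11, Ccl12, Ccl8 and Ccl1 lie between 82035571 and 82305690 (GRCm38), and Ccl2 was the only one with enough reads for a test and was called. The others, named here for their place after their values were seen, were too low for a test or, for Ccl8, at 0. Summed over both libraries of a group, Ccl7 had 3 counts in the controls and 41 in MOF cKO (ratio 18.3, 95% counting interval 5.85 to 92.6), and Ccl1 had 2 against 23 (ratio 15.4, interval 3.81 to 135). Ccl11 had 1 against 16 (ratio 21.5, interval 3.33 to 900.1) and Ccl12 had 1 against 14 (ratio 18.8, interval 2.86 to 794), and for Ccl11 15 of the 16 came from MOF cKO replicate 2. The 5 genes Ccl5, Ccl9, Ccl6, Ccl3 and Ccl4 lie between 83525778 and 83664683 on the same chromosome. Of these, 4 were tested and 0 called by edgeR. DESeq2 called 2 of them (Ccl3 and Ccl6) higher, where it called 12.0% of all genes higher. By edgeR 4 had an unadjusted p under 0.05, as did 48.9% of all genes tested. On chromosome 5, Cxcl2 was called in the group Cxcl5, Cxcl3, Cxcl1 and Cxcl2 (90759360 to 90905938), and Cxcl10 in the group Cxcl9, Cxcl10 and Cxcl11 (92321347 to 92365485).

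The stretches just upstream of genes called higher in MOF cKO are shown. These genes were chosen by their calls in these data. RefSeq promoter windows (GRCm38.p6) matched 6 of the 9 genes called higher, and Ccl2, Cxcl16 and Tslp are named only. The 250 bases before each start were searched on both strands for the NF-kappaB motif, for AP-1 (TGANTCA) and for the STAT element GAS (TTCNNNGAA). Letters of NF-kappaB stood upstream of Ccl20, Cxcl10 and Cxcl2 (3 of 6), against 8.23% of all 27025 symbols with a window. Those of AP-1 stood upstream of Cxcl10, Il1a and Il1rn (3 of 6), against 7.82%, and those of GAS upstream of 0 of 6, against 8.13%. Il1b held none of the 3 in its window. For Il1rn only the first of its windows held AP-1 letters, and which start these cells used was not tested. These matches describe letters, not bound sites. The 180 bases before each start are printed on the gene's strand, 5′ to 3′, with motif letters in capitals. They are chr1:83116586-83116765 (+) for Ccl20, chr5:92348890-92349069 (-) for Cxcl10, chr5:90903719-90903898 (+) for Cxcl2, chr2:129309973-129310152 (-) for Il1a and chr2:24336680-24336859 (+) for the first of the Il1rn starts. The capitals are NF-kappaB letters in Ccl20 and Cxcl2, AP-1 letters in Il1a and Il1rn, and NF-kappaB letters in 2 blocks followed by AP-1 letters in Cxcl10.
Ccl20: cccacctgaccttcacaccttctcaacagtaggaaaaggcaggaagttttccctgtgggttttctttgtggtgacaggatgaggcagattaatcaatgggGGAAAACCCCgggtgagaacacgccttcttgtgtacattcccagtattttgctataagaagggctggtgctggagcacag
Cxcl10: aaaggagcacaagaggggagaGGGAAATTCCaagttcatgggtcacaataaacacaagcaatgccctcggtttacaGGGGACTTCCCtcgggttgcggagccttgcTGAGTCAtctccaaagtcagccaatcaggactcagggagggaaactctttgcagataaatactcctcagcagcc
Cxcl2: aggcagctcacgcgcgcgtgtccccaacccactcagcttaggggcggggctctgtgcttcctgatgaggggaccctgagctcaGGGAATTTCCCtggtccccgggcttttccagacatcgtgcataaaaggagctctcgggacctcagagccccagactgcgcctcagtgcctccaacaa
Il1a: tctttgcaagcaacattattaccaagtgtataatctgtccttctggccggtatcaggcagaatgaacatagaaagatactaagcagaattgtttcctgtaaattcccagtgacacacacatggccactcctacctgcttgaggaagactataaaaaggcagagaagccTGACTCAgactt
Il1rn: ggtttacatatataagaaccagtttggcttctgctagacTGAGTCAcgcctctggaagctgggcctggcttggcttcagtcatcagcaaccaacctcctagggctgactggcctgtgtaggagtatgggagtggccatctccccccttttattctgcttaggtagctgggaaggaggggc
In Cxcl10 the second block holds overlapping matches at positions -104 and -103 from the start, and in Cxcl2 the matches on the 2 strands begin at -97 and -96. The Cxcl1 window, a member that missed the threshold, also held NF-kappaB letters, and the window of Cxcl14, which fell, held GAS letters. Of the 47 members with a window, called or not, 12 held NF-kappaB, 9 AP-1 and 4 GAS letters. Whether the called genes differ in these letters from the other members or from all symbols was not tested.

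At P0.5, deletion of Kansl1 was accompanied by no called change. Of the 28 members tested in the 4 P0.5 libraries, 0 were called higher and 0 lower by edgeR's quasi-likelihood test, and 0% of the 13031 genes tested were called in either direction. Without adjustment 6 members had p under 0.05, against 15.7% of all genes, and the smallest adjusted p was 0.197 among the members and 0.11 among all genes. DESeq2 called 1 member higher, Il33, where it called 0.282% of all genes higher, and 0 lower, where it called 0.443% of all genes. The median log2 difference was 0.16 over the members and 0.01 over all genes.

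Among the 28 members tested by edgeR, Il33 had the largest fitted difference, and Ccl12 lay within its error. Il33 had 5.26 and 1.95 CPM in the P0.5 controls and 14.1 and 14.2 CPM in Kansl1 cKO (log2 difference 2.01, standard error 0.438, edgeR adjusted p = 0.197; DESeq2 log2 difference 1.97, adjusted p = 0.00728). The groups did not overlap, and the controls differed more from each other than the Kansl1 cKO libraries did. Its log2 difference was 2.83 without P0.5 control replicate 1 and 1.36 without P0.5 control replicate 2. With either Kansl1 cKO library left out, edgeR called Il33 higher, and without Kansl1 cKO replicate 2 it called Il1r2 lower. Il1r2 had 55.2 and 35.8 CPM in the controls and 16.4 and 47.9 CPM in Kansl1 cKO, and these groups overlapped (log2 difference -0.54, standard error 0.474, adjusted p = 0.623). Ccl12, a monocyte attractant, had 10 and 3 counts against 65 and 18 (log2 difference 1.98, standard error 0.797, adjusted p = 0.307), and its log2 difference was 3.54 without P0.5 control replicate 1, 1.0 without P0.5 control replicate 2 and 1.18 without Kansl1 cKO replicate 1. Ccl27a had 13.5 and 14.5 CPM against 20.7 and 19.6 CPM (log2 difference 0.49, standard error 0.185, adjusted p = 0.284).

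In the other direction, Ccl6 had 17 and 14 CPM in the controls and 5.70 and 8.11 CPM in Kansl1 cKO (log2 difference -1.19, standard error 0.266, adjusted p = 0.197). Ccl9 had 2.57 and 2.43 CPM against 0.746 and 1.55 CPM (log2 difference -1.19, standard error 0.498, adjusted p = 0.317), and Cxcr4 had 25.2 and 31.4 CPM against 22.5 and 18 CPM (log2 difference -0.51, standard error 0.204, adjusted p = 0.301). None of these groups overlapped, and none of these differences passed the threshold.

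The genes called in MOF cKO had small differences in Kansl1 cKO where they were measured. Cxcl16 had 30.1 and 26.1 CPM against 31.6 and 34.8 CPM (log2 difference 0.21, standard error 0.175). Cxcl14 had 451 and 409 CPM against 547 and 514 CPM (log2 difference 0.27, standard error 0.165), and Il1rn had 365 and 143 CPM against 179 and 284 CPM (log2 difference -0.17, standard error 0.435). Il1a gave a log2 difference of 0.22 (standard error 0.348), Il1b of 0.12 (standard error 0.44) and Ccl20 of 0.09 (standard error 0.618). Tslp, Ccl2, Cxcl2 and Cxcl10 had at most 13 counts in any P0.5 library and were not tested. Macrophage markers summed to 342 and 375 CPM in the P0.5 controls and 501 and 541 CPM in Kansl1 cKO, with 0 of the 18 tested called by edgeR or DESeq2 and 8 at an unadjusted p under 0.05. The 8 melanocyte markers summed to 506 and 574 CPM against 1133 and 1252 CPM, and the 10 fibroblast markers to 2130 and 1277 CPM against 1092 and 865 CPM. For edgeR no marker was called, while DESeq2 called 4 melanocyte markers higher and 4 fibroblast markers lower. Among all genes DESeq2 called 0.282% higher and 0.443% lower. By edgeR 38 of all 73 markers tested had an unadjusted p under 0.05, against 15.7% of all genes tested. The part of these cell types in the Il33, Ccl12 and Ccl6 values was not tested.

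**Figure D3:**
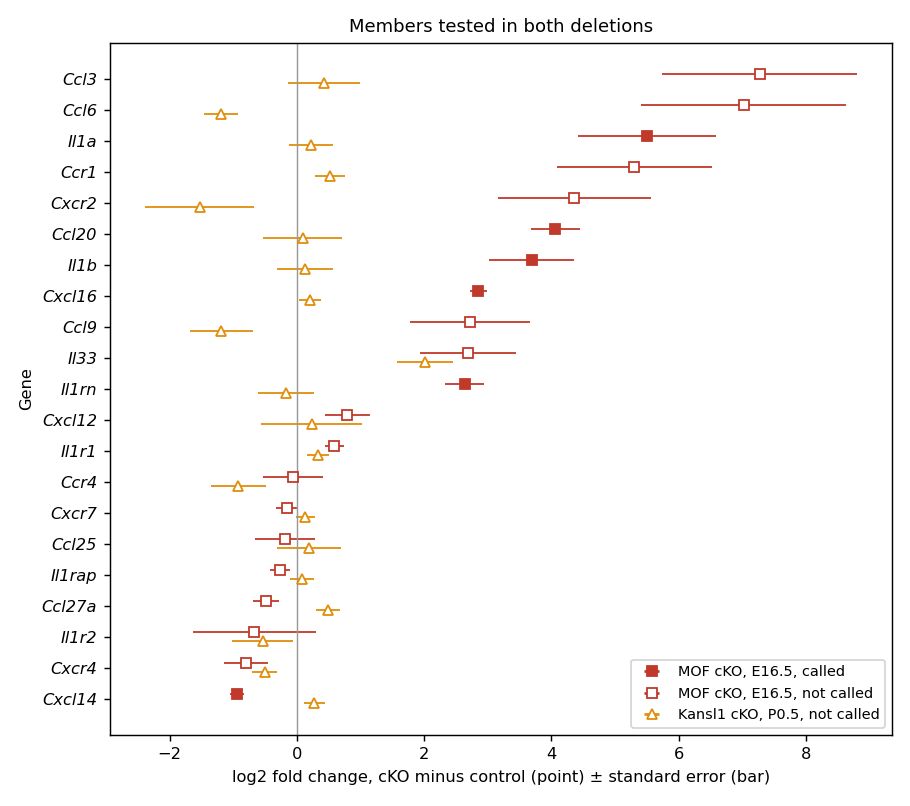
Log2 fold change (x axis, cKO minus control) with its standard error (bar) of the 21 members tested in both deletions, squares for MOF cKO at E16.5 and triangles for Kansl1 cKO at P0.5; filled symbols are called. Filled squares reach from -0.94 (Cxcl14) to 5.50 (Il1a), and no triangle is filled; the fitted values of Ccl3 and Ccl6 in MOF cKO rest on controls with 0 counts and are no measure of size.

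The difference between the deletions was tested itself, as the MOF effect minus the Kansl1 effect in a fit of all 8 libraries. Stage, isolation and sequencer differ between the experiments along with the deleted gene, and these cannot be told apart. Of 41 members tested, 4 were called higher and 1 lower, against 1.76% and 1.17% of 14565 genes. Cxcl16 was higher by 2.60 on the log2 scale (standard error 0.219, adjusted p = 0.000687), and it alone kept this call under all 15 alternatives. Cxcl14 differed by -1.24 (standard error 0.182, adjusted p = 0.00536).

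The other calls rested on few counts at E16.5. Ccl6, with 0 control counts at E16.5, had an adjusted p of 0.00456, Ccr1 of 0.00874 (log2 difference 4.65, standard error 0.793) and Il1a of 0.00944 (log2 difference 5.18, standard error 0.908). Leaving out E16.5 control replicate 1 put Ccr1 at 3.77 and Il1a at 7.65 on the log2 scale, leaving out E16.5 control replicate 2 put them at 6.48 and 4.50, and leaving out Kansl1 cKO replicate 2 put Il1a at 5.77. Leaving out any 1 library cost 1 to 4 of the 5 calls, and 4 were lost without either E16.5 control, without MOF cKO replicate 1 or without P0.5 control replicate 1. Tslp (log2 difference 7.96, standard error 2.17, adjusted p = 0.0419), Ccl20 (3.93, standard error 0.793, adjusted p = 0.0156), Il1b (adjusted p = 0.0189) and Il1rn (adjusted p = 0.0208) were not called by edgeR. DESeq2 called all 4 of them higher, as well as Ccl9 and Cxcr2, where it called 6.61% of all genes higher and 3.46% lower, and edgeR also called these 4 when every gene with at least 1 count was tested. Il33 had a difference of 0.66 (standard error 0.809, adjusted p = 0.619). For Ccl2 (log2 difference 2.23, standard error 1.27) the wide error came with 1 to 11 counts per P0.5 library.

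Between the control groups, 7 of the 9 IL-1 family members tested and 8 of the 11 receptor genes tested were called higher at P0.5 than at E16.5, where 19.6% of all genes tested were called higher and 20.6% lower. The 4 members called lower were the CXC chemokines Cxcl1, Cxcl2, Cxcl10 and Cxcl14, while Cxcl16 was called higher. The controls are shared with the deletion comparisons. The E16.5 libraries came from enzymatically dissociated and sorted cells read on a HiSeq instrument and the P0.5 libraries from directly lysed epidermal sheets read on a NovaSeq instrument, so age, isolation and sequencer cannot be told apart. In the fit of all 8 libraries 19 of 41 members were called higher at P0.5 and 4 lower, out of 14565 genes tested. DESeq2 called 21 higher, the others being Ccl12 (adjusted p = 0.00406) and Ccl20 (adjusted p = 0.00774), and 4 lower, against 22.3% and 17.1% of all genes. The median log2 difference was 1.52 over the members, also with the 8 members at 0 in a group put at their bound, and -0.13 over all genes. With library sizes alone in place of TMM factors these medians were 1.16 and -0.46. Members at 0 in the E16.5 controls, such as Ccl6, Ccr2 and Cxcr6, could be tested only through other groups. The member medians and counts of calls therefore only describe the tested members.

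Il18 went from almost no reads to the second highest level per length. It had 1 and 3 counts in the E16.5 controls and 1415 and 1854 in the P0.5 controls, or 173 and 129 CPM (log2 difference 11.09, standard error 0.543, adjusted p = 1.01e-06). Il1a had 2 and 0 counts against 381 and 463 (46.6 and 32.2 CPM at P0.5), a ratio of 1185 (95% counting interval 327 to 9803; adjusted p = 4.33e-06). Il1rn had 3.87 and 2.47 CPM against 365 and 143 CPM (log2 difference 6.31, standard error 0.522, adjusted p = 1.76e-05). The groups were far apart for all of these, and P0.5 control replicate 1 held the higher value of each. Without it the log2 difference of Il1rn was 5.49. Il18 overlaps Bco2 and Tex12 on the other strand.

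Among the IL-1 receptor chains, 2 were called higher. Il1r2 had 0.330 and 0.334 CPM at E16.5 and 55.2 and 35.8 CPM at P0.5 (log2 difference 7.07, standard error 0.624, adjusted p = 2.58e-05), and Il1rap had 26.9 and 22.4 CPM against 107 and 89.0 CPM (log2 difference 1.99, standard error 0.168, adjusted p = 1.98e-05). Il1r1 had 48.0 and 39.5 CPM against 34.1 and 28.5 CPM (log2 difference -0.49, standard error 0.169, adjusted p = 0.0336, not called). So the decoy and the accessory chain were called higher and the signalling receptor was not called. Il1r2 and Il1rap overlap Gm16894 and Gm20319 on the other strand. Il1b had 5 and 8 counts against 27 and 25 (log2 difference 3.54, standard error 0.591, adjusted p = 0.000857). Il33 had 16 and 7 counts against 43 and 28 (log2 difference 3.25, standard error 0.644, adjusted p = 0.0022), and Il1rl1 was not called (adjusted p = 0.318).

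Among the chemokines called lower, Cxcl1 had 25.1 and 66.9 CPM at E16.5 and 0.489 and 0.556 CPM at P0.5 (log2 difference -6.42, standard error 0.612, adjusted p = 3.9e-05). Cxcl2 had 71 and 150 counts against 0 and 0, at least 12.4-fold lower (adjusted p = 0.000727). Cxcl10 had 2.46 and 2.57 CPM against 0.245 and 0.278 CPM (log2 difference -3.22, standard error 0.5, adjusted p = 0.00057). None of the groups overlapped, and leaving out E16.5 control replicate 2 put Cxcl1 at -5.44 on the log2 scale. Cxcl14 had 785 and 701 CPM against 451 and 409 CPM (log2 difference -0.79, standard error 0.129, adjusted p = 0.000755). Il6, with 7 and 15 counts at E16.5 and none at P0.5, was at least 1.23-fold lower (adjusted p = 0.0379, not called). Ccl25 (log2 difference -1.67, adjusted p = 0.0229) and Ccr10 (log2 difference -2.27, adjusted p = 0.0359) were not called. By edgeR, neither were Tslp (adjusted p = 0.856), Ccl2 (adjusted p = 0.201), Ccl20 (log2 difference 1.52, adjusted p = 0.0513), Ccl19 (adjusted p = 0.39), Ccl28 (adjusted p = 0.775), Ccl27a (adjusted p = 0.137), Cxcl12 (adjusted p = 0.334), Cxcl11 (adjusted p = 0.381) or Ccr4 (adjusted p = 0.226).

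Among the chemokines called higher, Ccl6 had 0 and 0 counts at E16.5 and 135 and 203 at P0.5, at least 161-fold higher (adjusted p = 8.34e-06). Ccl3 had 0 and 0 counts against 6 and 11, at least 7.89-fold higher (adjusted p = 0.00176), and Ccl9 had 2 and 11 counts against 21 and 35 (log2 difference 3.54, standard error 0.823, adjusted p = 0.00523). The low count of Ccl9 in E16.5 control replicate 1 weighs on its value, which was 2.76 without that library and 5.33 without E16.5 control replicate 2. Cxcl16 had 12.0 and 14.3 CPM against 30.1 and 26.1 CPM (log2 difference 1.09, standard error 0.157, adjusted p = 0.000358). Ccl12, with 1 count against 13, had an edgeR adjusted p of 0.0107 and was not called, though DESeq2 called it.

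The receptor genes called were all higher at P0.5 (8 of 11 tested, against 19.6% of all genes). Receptor genes at or near 0 in the E16.5 controls, such as Ccr1, Ccr2 and Cxcr6, could be tested only through other groups. This count therefore only describes the tested genes. Ccr1 had 1 count in the E16.5 controls and 60 and 100 in the P0.5 controls, a ratio of 449 (95% counting interval 79.5 to 17858; adjusted p = 7.94e-06). Ccr2 had 0 counts against 10 and 42, at least 21.8-fold higher (adjusted p = 0.00162), and Cxcr6 had 0 against 17 and 13, at least 15.7-fold higher (adjusted p = 0.00227). These are receptors of monocytes, macrophages and T cells. Ccr9 had 1 and 4 counts against 13 and 37 (log2 difference 4.62, standard error 0.827, adjusted p = 0.00127), and Cxcr2 had 2 and 0 against 30 and 9 (adjusted p = 0.00319). Single libraries moved both: Ccr9 was at 3.93 without E16.5 control replicate 1 and at 5.95 without E16.5 control replicate 2, and Cxcr2 ranged from 4.10 without P0.5 control replicate 1 to 8.28 without E16.5 control replicate 1. Ccr9 overlaps Gm17200 on its own strand and Lztfl1 and Slc6a20a on the other, and Cxcr6 overlaps Fyco1 on the other strand. Cxcr4 had 5.66 and 10.1 CPM against 25.2 and 31.4 CPM (log2 difference 1.85, standard error 0.284, adjusted p = 0.000531), and Cxcr7 had 30.1 and 29.0 CPM against 62.5 and 58.9 CPM (log2 difference 1.04, standard error 0.162, adjusted p = 0.000578).

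**Figure D4:**
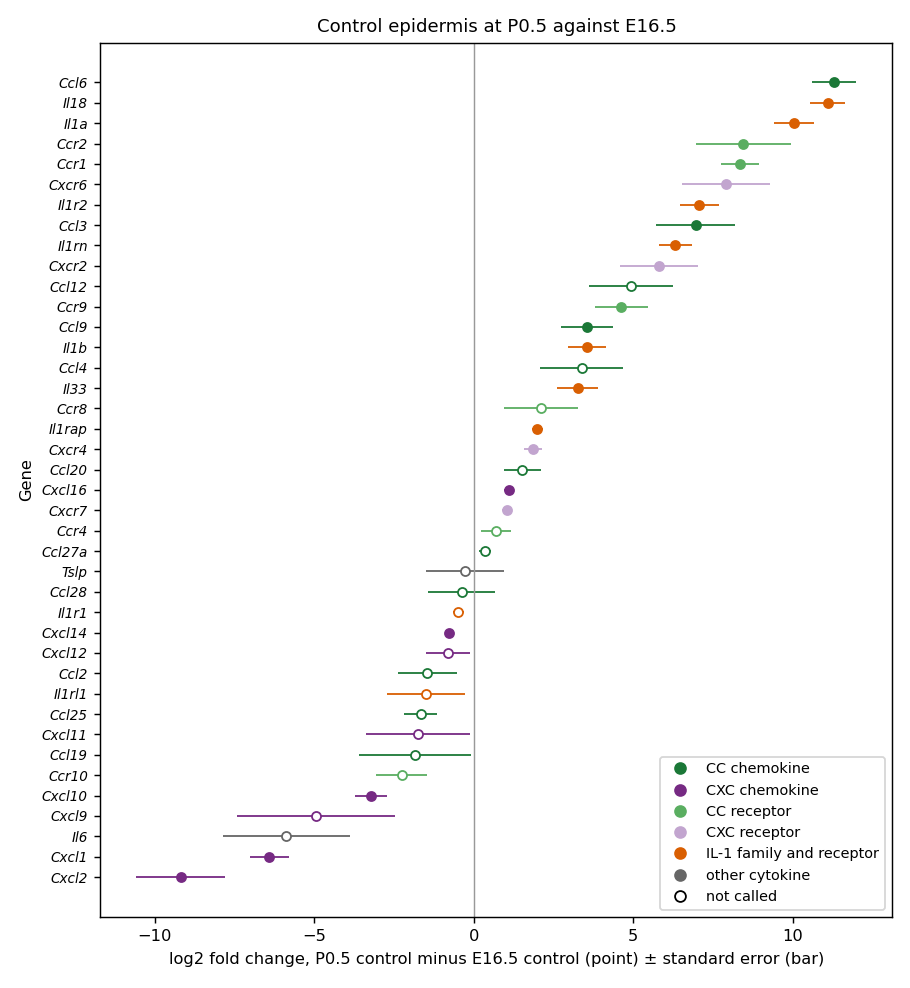
Log2 fold change (x axis, P0.5 control minus E16.5 control) with its standard error (bar) of 40 members tested in the fit of all 8 libraries, coloured by class; filled symbols are called. The 18 filled symbols to the right hold 7 of the IL-1 family and 7 receptors, and the 4 to the left are CXC chemokines; values of genes with 0 counts in a group, such as Ccl6 and Cxcl2, are fitted and no measure of size.

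Of these 23 calls, 15 held under all 16 alternatives. Leaving out E16.5 control replicate 1 cost 6 calls (Ccl3, Ccl9, Ccr9, Cxcl14, Cxcr2 and Cxcr6) and leaving out E16.5 control replicate 2 cost 3 (Cxcr2, Cxcr6 and Il33). Leaving out P0.5 control replicate 1 cost 4 (Ccl9, Cxcr2, Cxcr6 and Il33), and leaving out P0.5 control replicate 2 cost 4 (Ccl3, Ccl9, Ccr2 and Ccr9). The log2 difference of Il33 was 2.42 without P0.5 control replicate 1, 3.84 without P0.5 control replicate 2 and 3.87 without E16.5 control replicate 1. That of Ccr1 was 7.49 without E16.5 control replicate 1 and 10.14 without E16.5 control replicate 2, and that of Il1a was 12.52 and 9.31, that of Il18 10.47 and 12.11. Macrophage markers stood at 20.9 and 45.0 CPM in the E16.5 controls and 342 and 375 CPM in the P0.5 controls, with 17 of 19 called higher. Of all genes tested, 19.6% were called higher and 20.6% lower. T-cell and innate lymphoid markers had 7 of 11 called higher and 2 lower, and Cd3d, Cd3g and Cd2, at 0 at E16.5, were detected at P0.5. The part of these cells in the receptor values was not tested.

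Genes around the members gave the following counts in MOF cKO, to be read against the 10% of all genes called higher and 9.59% called lower. Of 9 other chemokine and receptor genes tested, 2 were called higher and 1 lower. Pf4, a platelet and macrophage chemokine, had 0 and 1 counts in the controls and 67 and 30 in MOF cKO (adjusted p = 0.00497), and Cmklr1 had 1 and 1 against 37 and 20 (adjusted p = 0.00792). Ccrl1, a scavenging receptor for CC chemokines, had 395 and 390 counts against 76 and 58 (log2 difference -2.11, standard error 0.292, adjusted p = 0.00186). Of 8 other IL-1 family genes, 1 was called higher and 0 lower. This was Il1f9, which encodes IL-36 gamma, with 35 and 34 counts against 274 and 316 (log2 difference 3.51, standard error 0.282, adjusted p = 0.000402).

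Downstream and processing genes were called in part, to be read against the same 10% of all genes called higher and 9.59% called lower. Of 19 genes of IL-1 and Toll-like receptor signalling, 0 were called by edgeR's quasi-likelihood test in either direction, and DESeq2 called 1 higher. By edgeR 7 of the 19 had an unadjusted p under 0.05, against 48.9% of all genes tested. Of 20 NF-kappaB factors and feedback inhibitors, 6 were called higher and 0 lower, led by Bcl3 (log2 difference 2.62, standard error 0.273, adjusted p = 0.000757) and Relb (1.15, standard error 0.148, adjusted p = 0.00141). Of 14 inflammasome and IL-1 processing genes, 4 were called higher and 0 lower, among them Gsdmc, a gasdermin, with 16 and 26 counts against 917 and 985 (log2 difference 5.91, standard error 0.266, adjusted p = 9.1e-05), and Casp4, with 1 and 1 counts against 43 and 39 (adjusted p = 0.00341). Of 11 receptors and feedback genes of IL-6 and TSLP, 3 were called higher and 0 lower, led by Cish (log2 difference 1.46, standard error 0.154, adjusted p = 0.000773) and Il6ra (1.36, standard error 0.148, adjusted p = 0.000825). Of 15 other cytokines, 4 were called higher, among them Il24 with 2 and 1 counts against 171 and 231 (adjusted p = 0.000283) and Il19 with 0 and 0 against 19 and 45 (adjusted p = 0.00656). The 2 called lower were Tgfb2 (log2 difference -3.13, standard error 0.401, adjusted p = 0.00139) and Tgfb3 (-2.29, standard error 0.269, adjusted p = 0.00106). In Kansl1 cKO, 0 genes of the 7 lists were called by edgeR in either direction or by DESeq2. By edgeR 11 of the 94 tested had an unadjusted p under 0.05, against 15.7% of all genes tested.

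Across the control groups, where 19.6% of all genes were called higher and 20.6% lower, the same lists gave these counts. Of 11 other chemokine and receptor genes, 6 were called higher and 2 lower, and of 22 genes of IL-1 and Toll-like receptor signalling, 9 were called higher and 1 lower. Of 10 other IL-1 family genes, 7 were called higher at P0.5 and 1 lower, with Il1f6, which encodes IL-36 alpha, at 1 and 0 counts against 630 and 627 (adjusted p = 7.29e-06), and Il1f8, which encodes IL-36 beta, at 1 and 11 counts against 940 and 1097 (adjusted p = 7.43e-06). Of 14 inflammasome and processing genes, 8 were called higher and 1 lower, of 12 receptors and feedback genes of IL-6 and TSLP, 3 higher and 1 lower, and of 15 other cytokines, 3 higher and 4 lower. Of 20 NF-kappaB factors and feedback inhibitors, 1 was called higher and 11 lower, among them Tnfaip3 (log2 difference -3.69, standard error 0.22, adjusted p = 2.98e-06) and Nfkbiz (-3.41, standard error 0.295, adjusted p = 2.3e-05). Tnf, the cytokine of the same pathway, had 806 and 1695 counts at E16.5 and 8 and 5 at P0.5 (log2 difference -6.08, standard error 0.603, adjusted p = 4.77e-05).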

How the data were processed

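The deposited files hold raw gene counts, 1 table per library, with 23432 symbols. The authors aligned paired reads to mm10 and counted them per gene with HTSeq, and the paper and the submitters' processing notes name different aligners (HISAT2 and TopHat2). The strand setting was not given in the sources used here, although the kit keeps strand. Reads that named no gene, between 21.1% and 26.0% of a library, were left out. Replicates were separate samples. Where litters or animals are not given, p-values measure the spread between these samples, and 2 libraries a group limit every test.

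Counts were tested with edgeR 4.0.16 (R 4.3.3, limma 3.58.1) after filterByExpr and TMM factors, with glmQLFit and glmQLFTest. The MOF and Kansl1 comparisons used their own 4 libraries, and the control comparison and the difference of effects used all 8. A call needed an adjusted p (Benjamini-Hochberg over all genes tested) at or under 0.01 and more than a 1.5-fold difference, as in the study. DESeq2 1.42.0 was an alternative. Fits were tested on simulated data. CPM values printed use factors over all 8 libraries, whereas fold changes use those of their fit. RPKM divides that CPM by the union of exons in GENCODE M21 (GRCm38), found for 61 of the 64 members. A ratio with 1 to 3 counts on its low side has an exact 95% binomial interval, and a group at 0 is set to a floor of 3 counts per library. Both cover counting error only. Promoters are RefSeq windows (32851 in all, GRCm38.p6).

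Members and lists were chosen with earlier results of these data known. Members were named by a rule: a group mean of at least 1 CPM or a call in any comparison gives a member its values (1 such member is counted but not reported here), and of each list around them at most 2 called genes a direction are named. Marker lists covered keratinocytes, macrophages, neutrophils, dendritic cells, mast cells, T or innate lymphoid cells, endothelium, fibroblasts, melanocytes and red blood cells. Alternatives were other scalings, other filters, DESeq2, an adjusted p of 0.05, each library left out, a replicate block, all 8 libraries for the deletions and only the controls for the stage.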

Additional observations from a re-analysis of the deposited data

How the results depend on the processing

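The count of members called higher in MOF cKO was 9, with 7 under upper-quartile factors or library size alone. It was 16 at an adjusted p of 0.05, 16 with the replicate block, and 5 to 8 with a library left out, lowest without MOF cKO replicate 1. In Kansl1 cKO the 0 called higher became 1 (Il33) when every gene with at least 1 count was tested, 1 with DESeq2 and 0 to 1 with a library left out, and the 0 called lower ranged from 0 to 1 (Il1r2). At the stage comparison the 4 called lower became 7 at an adjusted p of 0.05. For the difference of effects the 4 called higher became 12 at an adjusted p of 0.05, 11 when every gene with at least 1 count was tested, 10 with DESeq2, and 1 to 4 with a library left out. The 1 called lower became 2 at an adjusted p of 0.05 and 0 to 1 with a library left out. The stricter or looser threshold and the smaller number of samples are built into those settings, and for the other settings the cause was not tested. No called member changed direction under any alternative run. Among the others in the MOF comparison, Ccl19 turned to -0.54 with the replicate block and ranged from -5.09 to 1.61 with a library left out, and the ranges that crossed 0 were -0.60 to 0.38 for Ccl25, -0.48 to 0.25 for Ccr4, -0.39 to 0.04 for Cxcr7 and -0.05 to 4.19 for Il1rl1. The paper describes 2 pairs of samples for each experiment, with littermate controls, but the replicate numbers are not stated to mark these pairs. Deviations from the group means correlated at 0.206 between same-numbered E16.5 libraries and at -0.202 at P0.5, so the block is only an alternative. With it, and with the numbers crossed at P0.5 (an alternative chosen after seeing the data), Kansl1 cKO had 0 calls in either direction. Library size alone in place of TMM factors moved the MOF median from -0.02 to -0.32 over all genes and from 1.66 to 1.36 over the members. At 9108709 to 19774643 reads on genes per P0.5 library, the low levels of Tslp, Ccl2, Cxcl2 and Cxcl10 left them untested in Kansl1 cKO.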
